A study of Mus musculus with 6 samples.

Results

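The replication-dependent histone genes are short, mostly intronless genes that stand in dense clusters. In the mouse gene table used here, 67 of 21887 protein-coding genes were replication-dependent histone genes, chosen by their symbols. Of these, 63 matched by their current symbol, and 4 matched only by an older one (H2bu2, H2aw, H4f16 and a gene listed as H4bc24, whose older symbol Hist1h2br is that of an H2B gene). The members were 6 linker histone H1 genes and 18 H2A, 18 H2B, 12 H3 and 13 H4 genes. Chains of members with gaps of at most 200 kb gave 23 genes in a proximal cluster on chromosome 13 (chr13:21715711-22043658, GRCm38.p6), 31 in a distal cluster on the same chromosome (chr13:23531044-23934913), and 10 on chromosome 3 (chr3:96219885-96270192). A further 2 lay on chromosome 11 and 1 on chromosome 6.

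Core histones H2A, H2B, H3 and H4 form the nucleosome, and H1 binds the linker DNA between nucleosomes. The clustered genes are transcribed mainly in S phase, inside a nuclear compartment called the histone locus body, where NPAT drives transcription and SLBP binds the stem-loop that ends their non-polyadenylated mRNAs. Many H2A and H2B genes are divergent pairs that share 1 short promoter region. Arid3a, an AT-rich interaction domain protein also known as Bright and as a binding partner of E2F1, is a transcription factor that prefers AT-rich DNA.

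Arid3a was profiled by CUT&Tag, a method that tethers a transposase to antibody-bound chromatin and sequences the fragments it releases, in primary mouse vascular smooth muscle cells. The labels give 3 libraries from cells with a negative control siRNA (called NC-labelled) and 3 from cells with an siRNA against Arid3a (siRNA-labelled). Each of the latter 3 had a different siRNA, numbered 1 to 3, so siRNA and library cannot be told apart within that group. Each reaction used 10000 cells, and siRNA transfection lasted 24 h. The labels also describe an angiotensin II model of aortic aneurysm in these cells without giving the exposure of each library, and whether the libraries were made from separate cultures is not stated, so the p-values measure only the spread between these libraries.

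Each library gave 1 list of 43834 to 51682 peaks. The background coverage solved from the lists had a mean ratio of 1.31 between NC-labelled and siRNA-labelled libraries and did not overlap (0.621 to 0.673 against 0.475 to 0.538 fragments per base), so group and coverage cannot be told apart. The peak names inside all 6 lists carry the other group's name, and every direction between groups would turn if those names were right. Over 5822 regions with a mean of at least 50 fragments, siRNA-labelled library 1 differed from libraries 2 and 3 by a mean chi-square of 1.15 and 1.10 per region. The other 4 pairs within a group lay between 0.757 and 0.816. Counting noise alone would give about 1, so library 1 stood little above that and the other 4 pairs below it. What set those pairs below was not tested. All 6 libraries were kept as separate samples. A peak was found in all 6 libraries at 6 of 8 smooth muscle markers (Myh11 with 18 to 32 summit fragments; none at Des), 3 of 5 endothelial, 1 of 5 immune and 3 of 4 fibroblast markers, and peaks do not measure expression.

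The promoters shown first belong to members with a high peak, a low peak and no peak, and their motifs do not follow that order. They are the 250 bases before the start of H2ac6 (minus strand, chr13:23683960-23684209), at the highest region of all members, of H2bc3 (plus strand, chr13:23746484-23746733), an H2B gene with a high peak, of H4c11 (plus strand, chr13:21734784-21735033), with the lowest-ranked peak found in all libraries, and of H2ac1 (plus strand, chr13:23934187-23934436), a testis H2A variant with no peak. H2bc3 and, further on, H2ac18 were chosen for display after their values were seen. Capitals mark the TATA word TATAAA, the CCAAT word and the octamer ATTTGCAT on either strand. The sequences are from RefSeq, GRCm38.p6, written 5′ to 3′ on the gene's strand.
H2ac6: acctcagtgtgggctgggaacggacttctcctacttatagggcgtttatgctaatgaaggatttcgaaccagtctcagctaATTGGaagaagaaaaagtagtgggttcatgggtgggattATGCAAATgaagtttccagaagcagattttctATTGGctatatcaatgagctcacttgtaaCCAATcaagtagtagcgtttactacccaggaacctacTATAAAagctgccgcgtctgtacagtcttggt
H2bc3: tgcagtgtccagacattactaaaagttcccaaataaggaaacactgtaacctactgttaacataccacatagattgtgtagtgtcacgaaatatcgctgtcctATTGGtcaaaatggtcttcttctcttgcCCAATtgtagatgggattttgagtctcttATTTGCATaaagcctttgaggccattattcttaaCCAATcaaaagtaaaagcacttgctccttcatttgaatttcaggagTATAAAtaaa
H4c11: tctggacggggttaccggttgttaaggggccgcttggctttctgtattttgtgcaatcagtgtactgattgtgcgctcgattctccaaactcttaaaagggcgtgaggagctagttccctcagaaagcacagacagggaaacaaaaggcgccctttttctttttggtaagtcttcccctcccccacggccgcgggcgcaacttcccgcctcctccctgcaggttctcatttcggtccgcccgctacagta
H2ac1: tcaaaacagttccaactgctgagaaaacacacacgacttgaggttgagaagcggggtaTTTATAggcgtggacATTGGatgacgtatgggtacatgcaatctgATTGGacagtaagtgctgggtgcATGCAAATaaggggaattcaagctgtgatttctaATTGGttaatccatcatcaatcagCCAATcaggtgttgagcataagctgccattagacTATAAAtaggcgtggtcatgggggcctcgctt

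H2ac6 and H2bc3 hold all 3 motifs close upstream of the start, and H4c11 holds none of them. H2ac1 holds all 3 as well, without a peak. Of member windows with a peak in all 6 libraries and of those with no peak, CCAAT stood in 41 of 50 and 9 of 10, ATTTGCAT in 12 of 50 and 2 of 10, and TATAAA in 23 of 50 and 3 of 10. Of the 10 windows with no peak, 6 share an identical run of at least 200 bases with another member's window. The 10 are therefore not all independent. The promoter table had windows for 62 of the 67 members (63 windows, no entry for H2bc4, H4c14, H3c1, H3c7 and H2bc21). CCAAT, the motif bound by NF-Y, stood in the 250 upstream bases of 52 of 63 member windows (82.5%), against 33.8% of all 32851 promoters. It was present in all 18 H2A and all 17 H2B windows but in 3 of 12 H4 windows. TATAAA stood in 29 (46% against 12.4%). The octamer ATTTGCAT, known from H2B promoters as an Oct1 site, stood in 14 (22.2% against 1.6%), which were 7 of 18 H2A and 7 of 17 H2B windows and none of H1, H3 or H4. The AT-rich words ATTAAA and AATTAA stood in 12 (19% against 12.7%) and 8 (12.7% against 10.4%). All motifs were searched on both strands, a match is a description of these letters only, and neighbouring members can share 1 region of DNA.

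Most members lay within 1 kb of an Arid3a peak in every library. A peak in all 6 libraries was found for 54 of 67 members (80.6%), against 55.7% of all protein-coding genes and 2.11% of 1516 other protein-coding genes of at most 1000 bp. The members with a peak numbered 56, 55 and 55 over NC-labelled libraries 1 to 3, against 54, 56 and 56 over siRNA-labelled libraries 1 to 3, the order used for all values below. By cluster, 17 of 23 proximal, 27 of 31 distal and 8 of 10 chromosome 3 genes had a peak in all 6, together with H2aw on chromosome 11 and H4f16 on chromosome 6. By type these were 5 of 6 H1, 14 of 18 H2A, 14 of 18 H2B, 9 of 12 H3 and 12 of 13 H4 genes. The genes are not independent of one another, since 1 region often lies near several of them.

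**Figure D1:**
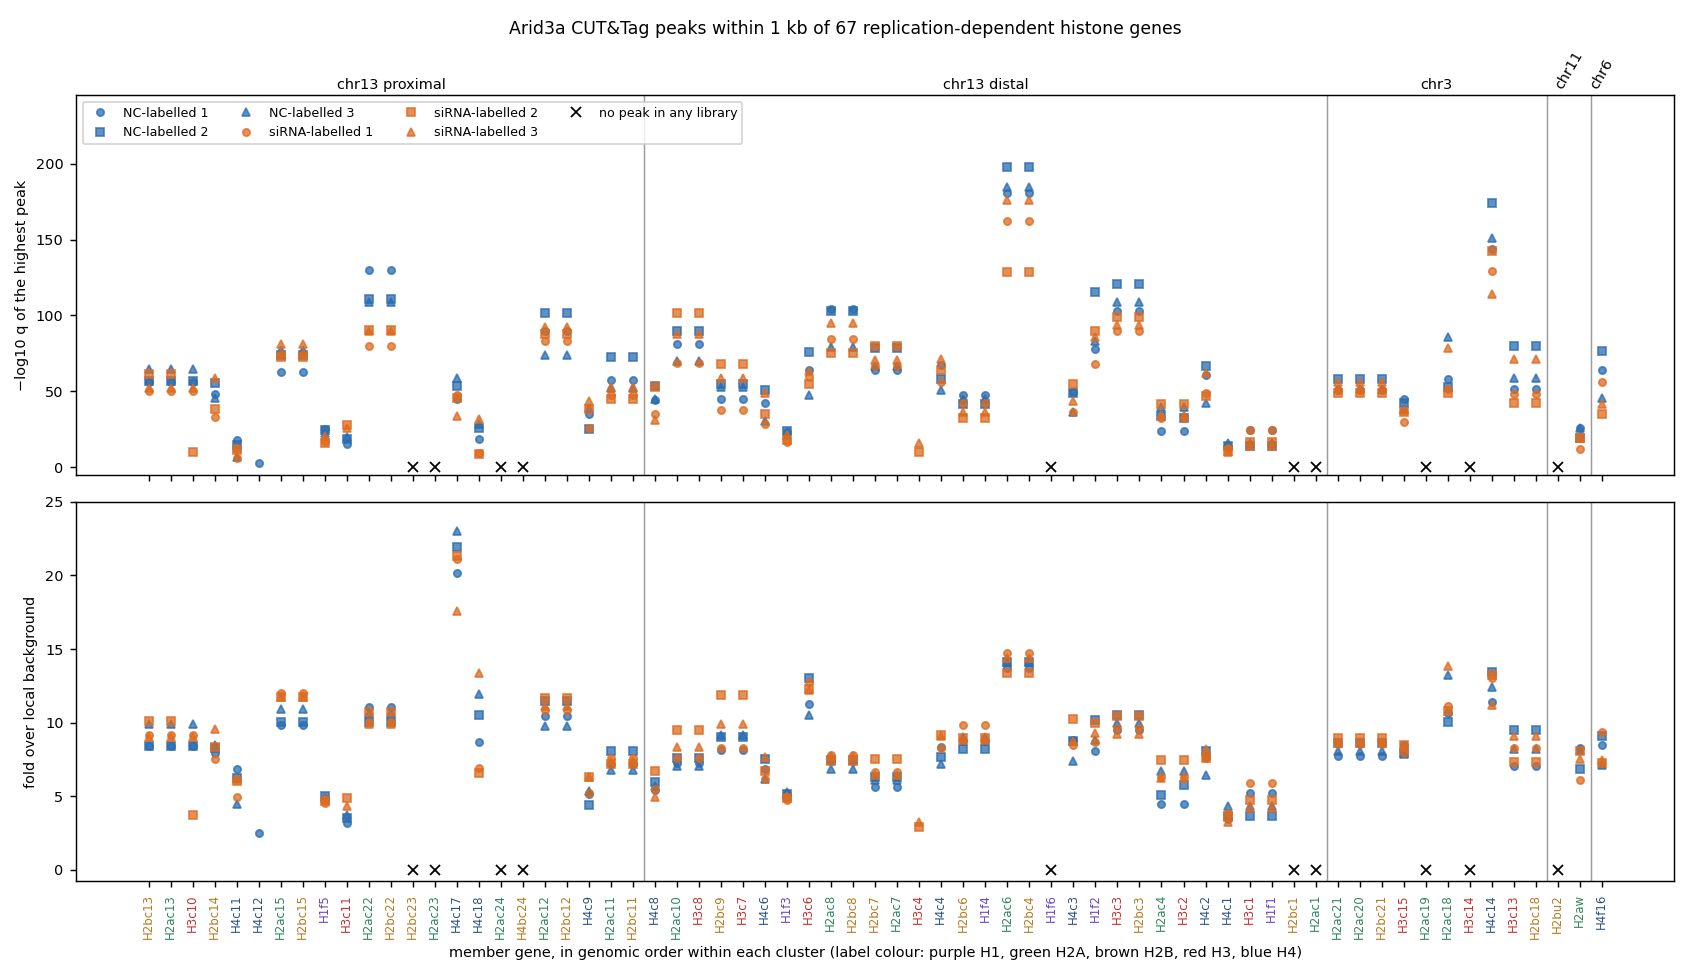
Highest peak within 1 kb of each of the 67 members in genomic order, as deposited −log10 q (upper panel) and fold over local background (lower panel), with 1 point per library; crosses mark the 10 members with no peak. H2ac6 and H2bc4 reach the highest −log10 q (129 to 198), and H4c17 the highest fold (17.6 to 23), at a peak past its gene's end.

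The peaks were tall and stood on a high local background. Summit fragments are the fragments that cover a peak's highest base, solved from the deposited values, and fold is the deposited ratio of that pile to the local background of the same library. Over the 54 members with a peak in all libraries, the median highest peak held 89 to 103.5 summit fragments depending on the library, against 29 to 42 over all 12196 protein-coding genes with a peak in all 6 and 30 to 46 over the 32 such short genes. Its median −log10 q was 49.2 to 58.4, against 18.1 to 26.7 over all such genes. Within its own list the median member peak ranked at the 95.0 to 96.2 percentile by −log10 q, against 79.2 to 82.8.

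The fold did not stand apart in the same way. The median fold was 8.10 to 8.94 over the members and 8.32 to 9.09 over all genes with a peak in all 6. The local background under the members' peaks was 9.86 to 13.2 fragments against 2.56 to 3.70, or 18.4 to 21.3 times the list's own lowest background against 5.39 to 5.57 times. In these lists a histone gene peak thus had more fragments than the peak of a typical gene, over a background that was higher too. What raised the local background was not tested.

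**Figure D2:**
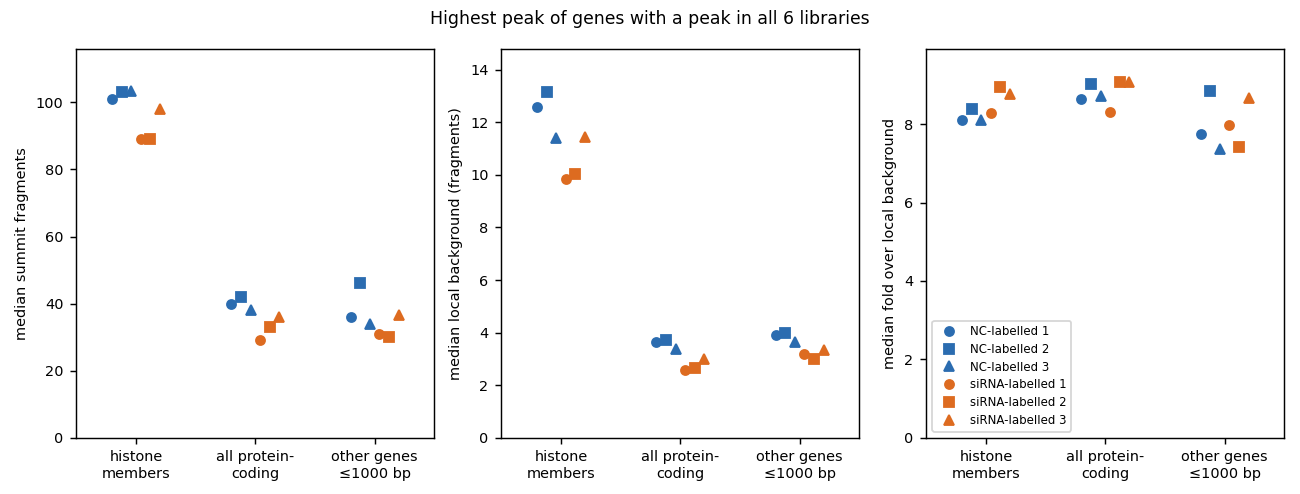
Medians over genes with a peak in all 6 libraries of summit fragments, local background in fragments and fold, for the 54 histone members, all 12196 protein-coding genes and 32 other short genes, with 1 point per library. Members lie above both other sets in all 6 libraries in the first 2 panels and overlap them in the fold.

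The highest region of the distal cluster, and of all members, was shared by H2ac6 and H2bc4, which encode H2A and H2B. It held 242, 261 and 243 summit fragments in the NC-labelled libraries, against 209, 174 and 230 in the siRNA-labelled ones. Its fold was 13.7, 14.1 and 14.1 against 14.7, 13.4 and 14.4. The counts of the groups did not overlap before scaling for coverage, and the folds did. Summit fragments are unscaled counts wherever they are not called scaled, and coverage was higher in the NC-labelled libraries. The next region down that cluster's ranking, between H3c3 (H3) and H2bc3 (H2B), held 173, 189 and 176 fragments against 149, 155 and 160. Divided by each list's background coverage, these were 258, 281 and 283 against 314, 322 and 297, so the order of the groups turned.

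On chromosome 3 the highest peak belonged to H4c14, an H4 gene, with 215, 236 and 214 fragments against 178, 194 and 171. The peak that H2ac20, H2ac21 and H2bc21 share was lower, with 98, 103 and 95 against 90, 84 and 98. The lowest-ranked of this cluster, by their weakest library, were H3c15 (80, 78 and 72 against 55, 64 and 67) and the region of H3c13 and H2bc18 (107, 133 and 108 against 88, 85 and 122). The spread between the libraries of a group in this last region was wider than the gap between the groups in these unscaled counts. Divided by each list's background coverage, it had 160, 198 and 174 against 185, 176 and 227. H4c14 had 321, 351 and 345 against 375, 402 and 318, and H3c15 had 119, 116 and 116 against 116, 133 and 125. The groups overlapped at each of these on that scale. The peak of H2ac20, H2ac21 and H2bc21 had 146, 153 and 153 against 189, 174 and 182, without overlap.

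In the proximal cluster the divergent pair H2ac22 and H2bc22 ranked first, with 198, 179 and 169 fragments against 128, 139 and 146. H2ac12 and H2bc12 followed with 140, 150 and 120 against 126, 127 and 138. Divided by each list's background coverage, the first pair had 296, 266 and 272 against 269, 288 and 271, so its groups overlapped. On that scale H2ac12 and H2bc12 had 209, 223 and 193 against 265, 263 and 257, without overlap. H4c11 was the lowest-ranked, with 35, 31 and 20 fragments against 16, 24 and 26 and a fold of 4.48 to 6.85, and its summits lay up to 1307 bp apart between libraries. The median summit over all peaks of a list held 16 to 20 fragments.

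H4c17, an H4 gene of the same cluster, had the highest fold of any member on few fragments. Its region (chr13:21812211-21812745) lay wholly past the gene's end (chr13:21812150) and counted only through the 1 kb window. It held 39, 46 and 50 summit fragments against 41, 37 and 29, with a fold of 20.2, 21.9 and 23 against 21.1, 21.3 and 17.6. Its local background was 0.709 to 1.22 fragments, far under the 9.86 to 13.2 of a typical member. At the other end, the lowest fold among members with a peak in all libraries was at H4c1 in the distal cluster, with 46 to 57 fragments and a fold of 3.24 to 4.30 over a local background of 11.3 to 15.4. H4c17 was named after its values were seen.

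**Figure D3:**
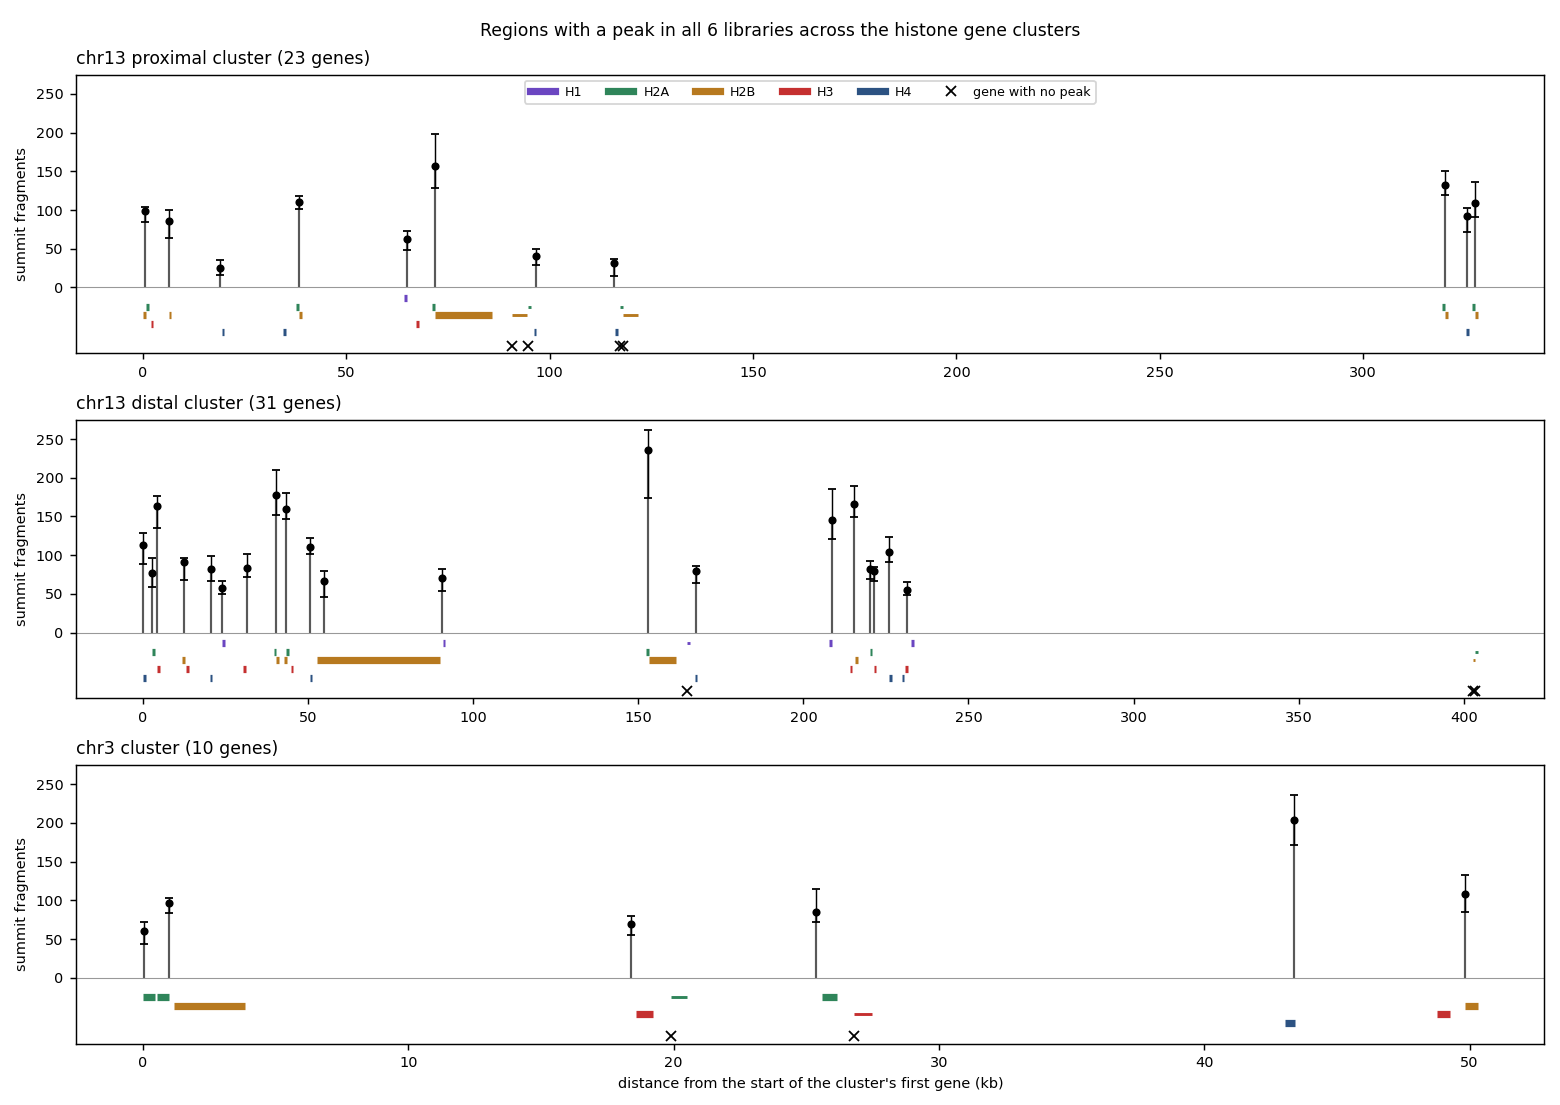
The 3 clusters with distance from the first gene in kb on the x axis and, on the y axis, median summit fragments of each shared region near a member (bars give the lowest and highest of 6 libraries); thick coloured boxes are genes with a peak in at least 1 library, and thin boxes with crosses are genes with none. The H2ac6 and H2bc4 region (174 to 261 fragments) stands highest, and the testis genes at the end of the distal cluster have no region.

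Neighbouring histone genes often shared a region. Peaks of the 6 libraries merged into 49 regions near members, of which 39 had a peak in all 6. Of those 39 regions, 20 lay near 1 member and 19 near 2 or more, and 1 also lay near a gene that is no member. Shared regions near members made up 11 of 15 shared regions inside the span of the proximal cluster, 20 of 23 in the distal cluster and 6 of 7 on chromosome 3. The gene models of H2bc4, H2bc6 and H2bc22 run over 8282, 37455 and 14079 bp. For H2bc6 the highest peak within 1 kb is the one next to H1f4, at chr13:23620809-23622601. Another region near H2bc6 alone, at chr13:23585098-23586138, held 46 to 79 fragments.

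The summits sat at gene starts. Of 38 regions with a member start in the promoter table, 30 had their median summit within 250 bp of the nearest one, and 5 lay over 500 bp away. The median distance was 66.25 bp, with 18 summits upstream, and the summit of a region moved by a median of 67 bp between libraries. The summit farthest upstream (at −1204 bp from the H1f1 start) belongs to a region that also covers H3c1, a gene with no start in the table, and its position differed by up to 1046 bp between libraries. The summit at H1f2, an H1 gene, lay 875 bp downstream, past the gene's end.

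Divergent pairs were sought only among members with a start in the promoter table. Of 10 such H2A and H2B pairs with starts 164 to 281 bp apart, 6 had a summit between the starts in all 6 libraries. H2ac12 with H2bc12 had one in 3. The other 3 pairs (H2bc23 with H2ac23, H2ac24 with H4bc24, and H2bc1 with H2ac1) had no peak. The 7 regions over a divergent pair had a median of 140, 150 and 120 summit fragments against 126, 127 and 138 in the siRNA-labelled group. The other 32 regions had 88.5, 89 and 81 against 70, 75 and 87.5. In fold the gap was smaller, with medians of 8.38 to 10.1 over the pairs and 7.31 to 8.33 over the rest. The rest include the tallest region, at H2ac6 and H2bc4, and the regions of H2ac20, H2ac21 and H2bc21. H2bc4 and H2bc21 had no start in the table, so neither could be counted in a pair. Among the types, members' median summit was lowest for H1 (62.5 fragments, fold 5.05) and 109.75 for both H2A and H2B, which share many regions, with 91 for H3 and 87 for H4.

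**Figure D4:**
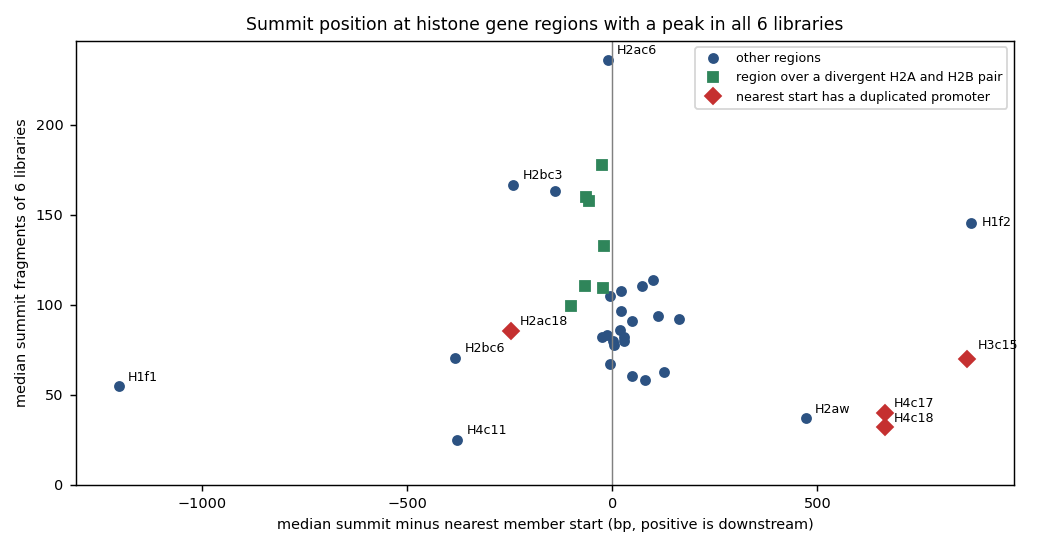
Median summit position relative to the nearest member start in bp (x axis) against the median summit fragments of 6 libraries (y axis) for the 38 shared regions with a start in the table. The 7 regions over a divergent pair with both starts in the table (squares) lie just upstream of a start. The 4 regions nearest to a duplicated promoter (diamonds) lie at −248 bp or at 665 to 864 bp.

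No peak in any library was found for 10 members (14.9%), against 31.1% of all protein-coding genes and 95.3% of the other short genes. H1f6 (H1t), H2ac1 (TH2A) and H2bc1 (TH2B) are linker and core histone genes known for expression in testis, and all 3 were without a peak. H2bu2, an H2B gene on chromosome 11, was the fourth. The remaining 6 were H2ac23, H2bc23, H2ac24 and H4bc24 in the proximal cluster and H2ac19 and H3c14 on chromosome 3.

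Each of those 6 has a promoter that is duplicated within its cluster. In all, 10 members had a 300-base window (250 bases before to 50 after the start) that shares an identical run of at least 200 bases with the window of another member. Of these, 6 had no peak, and 4 had a peak in all libraries but without a summit inside the shared run in any library. Counted over the whole window, H2ac18 had a summit inside it in 3 libraries, and the others of the 10 had none. Of the other 52 members with a window, 41 had a summit inside the whole window in at least 1 library and 27 in all 6. The H2bc23 and H4bc24 windows are identical over all 300 bases, H4c17 and H4c18 share 285, H3c15 and H3c14 share 231, and H2ac18 and H2ac19 share 219.

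H2ac18 and H2ac19 encode H2A and are shown because only the first has a peak. H2ac18 is on the plus strand (chr3:96245247-96245496) and H2ac19 on the minus strand (chr3:96240375-96240624). H4c18, on the minus strand (chr13:21832198-21832447), is shown for a window that H4c17 repeats almost whole. Each line gives the 250 bases before the start, and capitals mark the part of the shared run that lies in them.
H2ac18: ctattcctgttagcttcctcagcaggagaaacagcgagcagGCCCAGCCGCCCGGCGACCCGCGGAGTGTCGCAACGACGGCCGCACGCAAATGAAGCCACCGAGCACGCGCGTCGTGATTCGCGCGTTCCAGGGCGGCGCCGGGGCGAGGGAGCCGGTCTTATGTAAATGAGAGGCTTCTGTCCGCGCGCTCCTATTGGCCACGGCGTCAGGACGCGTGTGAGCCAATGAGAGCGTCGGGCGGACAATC
H2ac19: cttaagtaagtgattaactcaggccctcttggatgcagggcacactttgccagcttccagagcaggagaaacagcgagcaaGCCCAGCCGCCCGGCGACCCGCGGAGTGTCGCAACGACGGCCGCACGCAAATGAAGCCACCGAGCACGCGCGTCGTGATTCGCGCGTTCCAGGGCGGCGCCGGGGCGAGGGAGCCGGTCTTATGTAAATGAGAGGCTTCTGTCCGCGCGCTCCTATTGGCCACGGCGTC
H4c18: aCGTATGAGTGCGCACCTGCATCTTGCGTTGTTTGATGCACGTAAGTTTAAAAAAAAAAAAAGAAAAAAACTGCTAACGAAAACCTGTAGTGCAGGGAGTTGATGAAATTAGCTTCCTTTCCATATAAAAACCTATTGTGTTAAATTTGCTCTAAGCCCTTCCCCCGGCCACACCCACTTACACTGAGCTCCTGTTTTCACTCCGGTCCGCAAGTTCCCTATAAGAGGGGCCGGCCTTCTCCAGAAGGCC

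At H2ac18 the peak covered 72.1% to 87.2% of the run with its summit at −248 bp from the start, outside the run. It held 88, 83 and 114 fragments against 75, 72 and 101, and H2ac19 had no peak over the same letters. At H4c17 and H4c18 the summits lay 665 bp downstream of both starts, past the end of each gene, and at H3c15 they lay 864 bp downstream. None of these 3 peaks covered any base of the run. How reads that match several places were treated is not given in the sources used here, and its part in the missing peaks was not tested.

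Presence of a peak hardly differed between the groups. No member was present throughout the NC-labelled group and absent from the siRNA-labelled one (0.128% of all genes), and none showed the reverse (0.0914%). The number of libraries with a peak differed by 2 or more for 1 member, H3c4 (2.23% of all genes), an H3 gene. H3c4 had no peak in the 3 NC-labelled libraries and in siRNA-labelled library 1, a peak of 59 fragments (fold 2.87) in library 2 and one of 78 fragments (fold 3.22) in library 3. Without siRNA-labelled library 1, H3c4 would count as present in the siRNA-labelled group only. H3c11 (H3) lacked a peak in siRNA-labelled library 1 and had 78 to 87 fragments in the other 5. H4c12 (H4) had a peak in NC-labelled library 1 only, with 25 fragments and a −log10 q of 3.03. H3c11 and H4c12 were named after their values were seen.

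Peak height between the groups was compared at regions with a peak in all 6 libraries. Summit fragments were divided by each list's background coverage (scaled fragments), and their log2 was compared with limma over 29572 regions, with Benjamini-Hochberg adjustment over all of them. At an adjusted p below 0.05, 71 regions (0.24%) were called, 64 higher and 7 lower in the siRNA-labelled libraries, and 24 and 33 when scaled by the median ratio over shared regions instead. None of the 39 histone gene regions was called (smallest limma adjusted p = 0.118), and 11 (28.2%) had an unadjusted p below 0.05, against 13.3% of all regions. That count was 7 with scaling by the median ratio (11.3% of all regions), 3 without limma's mean-variance trend (11.6%) and 0 in the deposited fold (7.34%), so it did not exceed the share of all regions in the last 2. Without siRNA-labelled library 1, 935 regions (3.16%) were called, 3 of them near members, namely H2ac10 with H3c8, H2bc9 with H3c7, and H4c4.

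The siRNA-labelled libraries were slightly higher at most histone regions on this scale, as they were at most of all regions tested. The median log2 difference (siRNA-labelled minus NC-labelled) was 0.18 over the 39 regions, against 0.098 over all regions and 0.094 over 2113 regions of like height. The difference was above 0 at 35 of 39 regions, but the median of all regions was itself above 0. Above that median lay 28 of the 39. All siRNA-labelled libraries exceeded all NC-labelled ones in scaled fragments at 14 of 39 regions (35.9%), against 13.8% of all regions, and lay below all of them at 0 of 39, against 3.92%. The 2 groups overlapped at the other 25. The median SE was smaller over the histone gene regions (0.128) than over all regions (0.203). Neither this 35.9% nor the 28.2% at an unadjusted limma p below 0.05 was set against regions of like height. With scaling by the median ratio the median was 0.080 over the 39 regions and −0.00074 over all regions, with 28 histone regions above 0, so both moved by the same amount. In the deposited fold it was 0.035 against 0.012 over all regions, with 27 above 0 and 23 above the median of all regions, so the gap to all regions was smaller on that scale (0.024 in place of 0.080).

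At H4c4, an H4 gene, the scaled fragments were 182, 166 and 166 against 215, 226 and 227 in the siRNA-labelled group. The log2 difference was 0.38 with an SE of 0.11 (n = 3 each), and the limma adjusted p was 0.118, with a range of 0.0284 to 0.799 over the alternatives. The groups do not overlap there, while the unscaled counts (122, 112 and 103 against 102, 109 and 122) do. The largest difference, 0.41 with an SE of 0.13 (limma adjusted p = 0.156), was at the start of H3c2 (H3), in the second of 2 regions near both H2ac4 (H2A) and H3c2, where scaled fragments were 100, 119 and 137 against 154, 170 and 147. At H2ac15 and H2bc15 they were 151, 175 and 187 against 221, 216 and 217 (0.36, SE 0.11, limma adjusted p = 0.152).

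The 3 lowest differences were under 0 and within the spread of the libraries. H4c18 had 43.3, 52.0 and 58.0 scaled fragments against 33.7, 31.1 and 68.8, with siRNA-labelled library 3 above every NC-labelled library and libraries 1 and 2 below them (−0.29, SE 0.22, limma adjusted p = 0.619). The H4c18 difference was −0.65 without siRNA-labelled library 3, and −0.19, −0.13 and −0.076 without NC-labelled library 3 and siRNA-labelled libraries 1 and 2, and it was called in none of these. H4f16 on chromosome 6 had 172, 195 and 150 against 198, 145 and 152, and H2aw on chromosome 11 had 65.7, 57.9 and 72.5 against 54.7, 68.5 and 65.1, and the sign at both changed under some alternatives. The tallest region, at H2ac6 and H2bc4, had 361, 388 and 391 against 440, 361 and 428 (0.10, SE 0.090), so its groups overlapped.

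**Figure D5:**
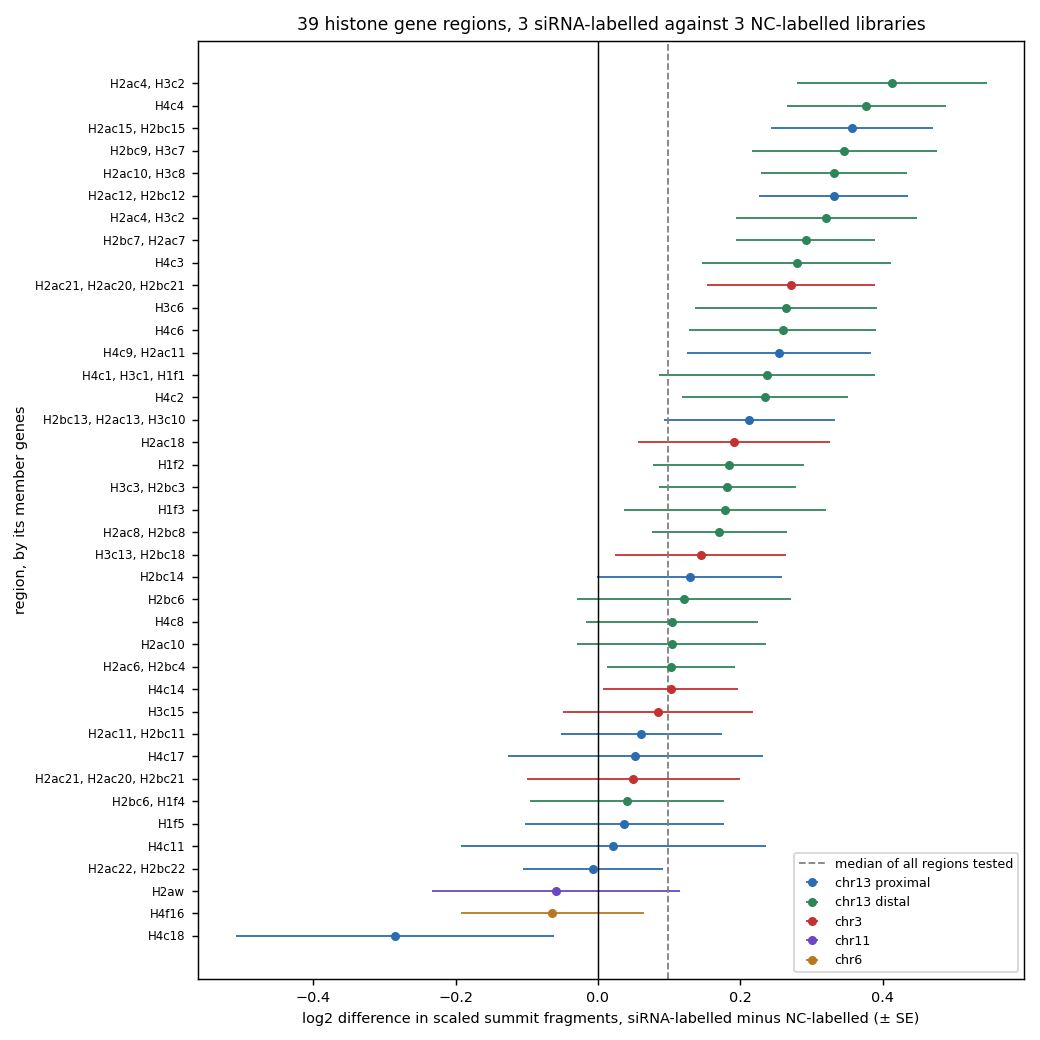
Difference in log2 scaled summit fragments, siRNA-labelled minus NC-labelled, at the 39 shared histone gene regions, with bars of 1 SE from limma and colours by cluster; regions near the same members carry the same label. Values run from −0.29 to 0.41, and the dashed line marks the median of all 29572 regions (0.098).

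Genes that act on the clusters were near Arid3a peaks too. Of 17 genes of the histone locus body and of histone mRNA processing that matched the gene table, 17 had a peak in all 6 libraries. Npat, the activator of the histone locus body, had a highest peak of 38 to 60 fragments and a fold of 10.1 to 14.5. Hinfp, which binds H4 promoters, had 40 to 70 fragments and a fold of 11.5 to 17.0. Slbp, the stem-loop binding protein, had 64 to 85 fragments, and Casp8ap2 (FLASH), a processing factor, had 34 to 52. Lsm11, of the U7 snRNP that cleaves histone pre-mRNA, was lower with 9 to 24. Pou2f1 (Oct1) had 29 to 55.

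All 11 genes of a list of replication-independent histones and variants and all 9 histone chaperones had a peak in all 6 libraries as well. H2az2 and H3f3b, which encode the variants H2A.Z and H3.3, reached 91 to 185 and 103 to 145 summit fragments. H2ax, encoding the H2A variant phosphorylated at DNA breaks, had 23 to 52, and Cenpa, the centromeric H3, had 23 to 31. Of the chaperones, Daxx, which deposits H3.3, was highest with 91 to 134, and Asf1b, an S-phase H3 and H4 chaperone, had 55 to 82. The counts in these lists stand beside 55.7% of all protein-coding genes, and the lists were not tested.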

How the data were processed

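The data were 6 Arid3a CUT&Tag peak lists. Per the submitters' processing notes, Bowtie2, Picard, MACS2 and mm10 were used, with no version or option named in the notes. Peaks were called per library. For each peak the authors deposited a score, the summit's fold over local background (a ratio with a pseudocount of 1) and −log10 p and q, which are used as the authors' values. Total reads were not used. Whole summit fragments and local background were solved from fold and −log10 p (tolerance 0.002), and the most frequent background of each list, also its lowest, stood for its coverage. The solver returned 100% of 4000 summits simulated with the same formula that it inverts. That checks the inversion but not the formula, and the simulation did not reach the highest local backgrounds and folds among the members.

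Peaks overlapping by at least 1 bp were merged into 79295 regions. A gene had a peak if 1 bp of it fell within 1 kb of the gene body (RefSeq, GRCm38.p6). The comparison used limma 3.58.1 (R 4.3.3) with a mean-variance trend. On simulated data with 200 of 29572 regions changed, it recovered 84% of changes of log2 1 and 5% of those of log2 0.5, with 8 false calls. The simulation gave every region the same residual SD (0.26). In the real fit the median SE was 0.128 over the histone gene regions and 0.203 over all regions. The recovered shares therefore do not give the recovery at histone gene regions. Other steps used Python 3.11.15.

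Members and gene lists were chosen with earlier results of these data known. Named genes were, per cluster, the 3 members ranked highest and the 2 lowest by their smallest within-list percentile of −log10 q, members with no peak or with groups differing by 2 or more libraries, and regions with the 3 largest and 3 smallest differences. Others are named as examples or to complete a count. Histone proteins were not printed.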

Additional observations from a re-analysis of the deposited data

How the results depend on the processing

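Of 325 values recomputed under alternatives, 293 kept their direction and call, or stayed within 1.5 times of a count or within 1 SD (0.064) of a median. Members with a peak in all libraries numbered 48 within the gene body alone and 64 within 3 kb, where members with no peak fell to 2 instead of 10. Leaving out 1 library gave 0 to 1 members with a peak only in the siRNA-labelled group (1 without siRNA-labelled library 1). Counting members by current symbol only, chosen after seeing the data, left 52 with a peak in all libraries and 8 with none.

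The regions called by limma over all 29572 were 0 in the deposited fold (2171 at an unadjusted p below 0.05), 0 without the mean-variance trend (3443 at that p), 6 with siRNA-labelled libraries 2 and 3 averaged, and 2 to 935 when leaving out 1 library. Histone gene regions called were 0 to 3 when leaving out 1 library (3 without siRNA-labelled library 1, where H4c4 passed) and 0 under every other alternative. The cause was not tested. With the replicate block, 375 regions were called and no histone gene region (smallest limma adjusted p = 0.0519). Deviations of same-numbered libraries from their group means had correlations of 0.0403, 0.0316 and −0.0207. Libraries of a group differed by about as much as counting noise, so these correlations cannot tell whether the numbers pair libraries. The main fit used no pairing. The median histone difference was 0.080 with scaling by the median ratio and 0.035 in the deposited fold.

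Differences that changed sign were not called under any of these settings. H4c11 became −0.077 (median ratio scaling), −0.016 (deposited fold), −0.069 (libraries averaged), and ranged from −0.18 to 0.20 when leaving out 1 library. On leaving out 1 library, H2ac22 with H2bc22 ranged from −0.038 to 0.038, H2aw from −0.14 to 0.036 and H4f16 from −0.20 to 0.029, which was also 0.0046 with libraries averaged. H3c3 with H2bc3 became −0.031 (deposited fold) and H3c15 −0.014 (median ratio scaling).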
